A study of Macaca fascicularis with 132 samples.

Results

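In PBMCs (mononuclear cells of the blood) of cynomolgus macaques, 40 genes were higher with IL-15 than without it at every time sampled. They were chosen by their measured values: counts of the 3 libraries of an animal and group were summed, expressed as CPM (counts scaled to a common library total), taken as log2(CPM + 1) and averaged over 4 animals. A gene was a member if the IL-15 culture exceeded the control culture by at least 0.5 on this scale at each of 2, 6, 12, 24 and 48 h, and if a control group reached a mean of 5 CPM. The level filter left 10811 of the 38550 genes in the table, and 40 of these were members. The same rule with its sign turned gave 6 genes that were lower at all 5 times.

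Cells were cultured with heterodimeric IL-15 (IL-15 bound to its receptor alpha chain) at 40 ng/ml for 2, 6, 12, 24 or 48 h, or as controls at 0 ng/ml for the same times and at 0 h. All groups came from the same animals, 2 females (38142 and 38155) and 2 males (38147 and 38157). Each animal had 3 libraries, numbered 1 to 3, in each of the 11 groups. No age, strain or genotype is given in the sources used here, and the design text speaks of 6 animals, of which 4 are analysed here. Nothing says whether the 3 libraries were separate cultures, so the animal was the replicate (n = 4).

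IL-15 acts on natural killer cells and on T cells, above all memory cells of the CD8 lineage. Its alpha chain presents the cytokine to a receptor made of the beta chain that IL-2 also uses and the common gamma chain, and the kinases JAK1 and JAK3 then activate STAT5, which drives genes of survival, growth and its own feedback control. The files do not pair gene IDs with symbols, and 0 IDs were found in the reference table used here. No member can therefore be given a name or a role, the markers that define the cell types could not be checked, and lists of IL-15 targets, effector genes or cell types could not be counted. The members are described by how they behaved, and 2 of them by their IDs.

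Library totals ran from 16423972 to 87944372 counts with a median of 27185130, and members had a median of 790 counts per library. The lowest count of any member in a sum of 3 libraries was 14, and 0 members were at 0 in any library. In all, 3 libraries lay farther from both sister libraries than the other libraries did: control at 2 h of 38157, control at 48 h of 38142 and IL-15 at 24 h of 38147. Without them the rule gave 39 genes, of which 38 were among the 40. In bulk RNA, more cells of a type and more RNA per cell cannot be told apart.

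The 2 h threshold was the hardest to meet. Effects (IL-15 minus control) of at least 0.5 were seen for 137, 408, 788, 939 and 1065 genes past the level filter at 2, 6, 12, 24 and 48 h. Of the 220 genes that met the threshold at 6, 12, 24 and 48 h, 180 were under it at 2 h, with a median effect of 0.06 there. Genes that failed at 1 other time alone numbered 4, 3, 1 and 15 for 6, 12, 24 and 48 h. The threshold cut through a continuous range. The last 2 genes inside had smallest effects of 0.52 and 0.50, and the first 2 outside had 0.50 and 0.49. One of those outside missed at 2 h only and reached 1.87 at 6 h.

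Because the rule used IL-15 against control at these times, the members' effects are a description and carry no test. The median effects at 2, 6, 12, 24 and 48 h were 0.72, 1.44, 1.78, 1.59 and 1.18. Single members ranged from 0.52 to 2.51 at the first time; the 12 h range was 0.52 to 4.54, and the last time gave 0.52 to 3.33. The group was thus weakest at the first time and strongest at 12 h. Over all genes past the level filter the medians were 0.02, -0.03, -0.15, -0.14 and -0.07. With TMM scaling, which sets libraries to a common middle gene, that median stood at 0.03 and the members' median at 1.96 at 12 h, so both moved up together.

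**Figure D1:**
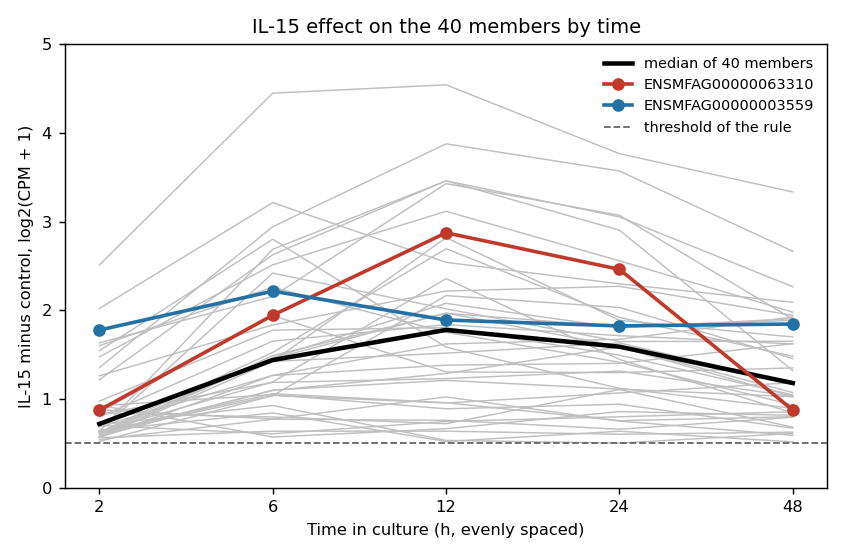
Effect of IL-15 (IL-15 minus control, log2(CPM + 1), mean of 4 animals) on the y axis against time in culture in hours on the x axis, with a grey line for each of the 40 members, a black line for their median and colours for the 2 genes given by ID. The median rose to 1.78 at 12 h and stood at 1.18 at 48 h, and the dashed line marks the threshold of 0.5 that chose the members.

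The members differed in when their effect was widest. The effect was widest at 12 h for 19 members and at 6 h for 10; 24 h and 48 h had 5 each, and 1 member was widest at 2 h. Median effects of the 10 members of the 6 h class were 0.89, 2.08 and 0.91 at 2, 6 and 48 h. For the 19 members of the 12 h class they were 0.73, 2.36 and 1.48 at 2, 12 and 48 h. The 5 members of the 48 h class had a median of 0.62 at 2 h and 1.19 at 48 h. By the choice of class each is highest at its own time. At 48 h the members kept a median of 67.8% of their widest effect, and 5 of them kept less than 50%. For 31 of the 40 the smallest effect was at 2 h.

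Effects of different times were also set against each other in edgeR (quasi-likelihood test, Benjamini-Hochberg adjusted p under 0.05 over 18197 genes tested, n = 4 animals). The rule set a floor for every time but not the order of the times; as the same samples chose the members, the counts are given as description. From 2 to 12 h the effect grew for 23 members (9.05% of all genes tested had a higher effect) and shrank for 0 (5.57%). Of the 40, 27 had an unadjusted p under 0.05 in that comparison (28.4% of genes tested), and DESeq2 called 26 in either direction. From 12 to 48 h it shrank for 9 (4.65%) and grew for 0 (5.77%), with 16 members at an unadjusted p under 0.05 (23.3%). DESeq2 called 10 in either direction. The share of all genes called by DESeq2 was not counted. Between 2 and 48 h the effect was higher at 48 h for 11 (12%) and lower for 1 (9.83%). Leaving out animal 38142 reduced the calls from 2 to 12 h to 15 and those between 2 and 48 h to 7, and leaving out 38147 also gave 7 between 2 and 48 h. From 12 to 48 h, 5 members were called without 38157, and 6 without either 38142 or 38155.

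In single animals the effect was positive nearly throughout. Of the 800 values of 40 members in 20 pairs of sums (4 animals at 5 times), 797 were above 0, and 37 members were above 0 in 20 of 20 pairs, against 3.35% of the genes past the level filter. The rule selects for this, so nothing further is read from it. The 3 values at or below 0 belonged to 3 members. In animal 38155 at 48 h, 2 members had effects of -0.04 each. In animal 38157 at 12 h, another stood at 18.8 CPM with IL-15 and 22 CPM in the control (-0.21). For 14 members the lowest IL-15 sum lay above the highest control sum at all 5 times (0.231% of the genes past the filter). At the single times from 2 to 48 h this held for 21, 34, 35, 34 and 29 members, against 2.33%, 3.86%, 7.95%, 9.36% and 11.4% of the genes past the filter. The rule selects for these counts too.

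**Figure D2:**
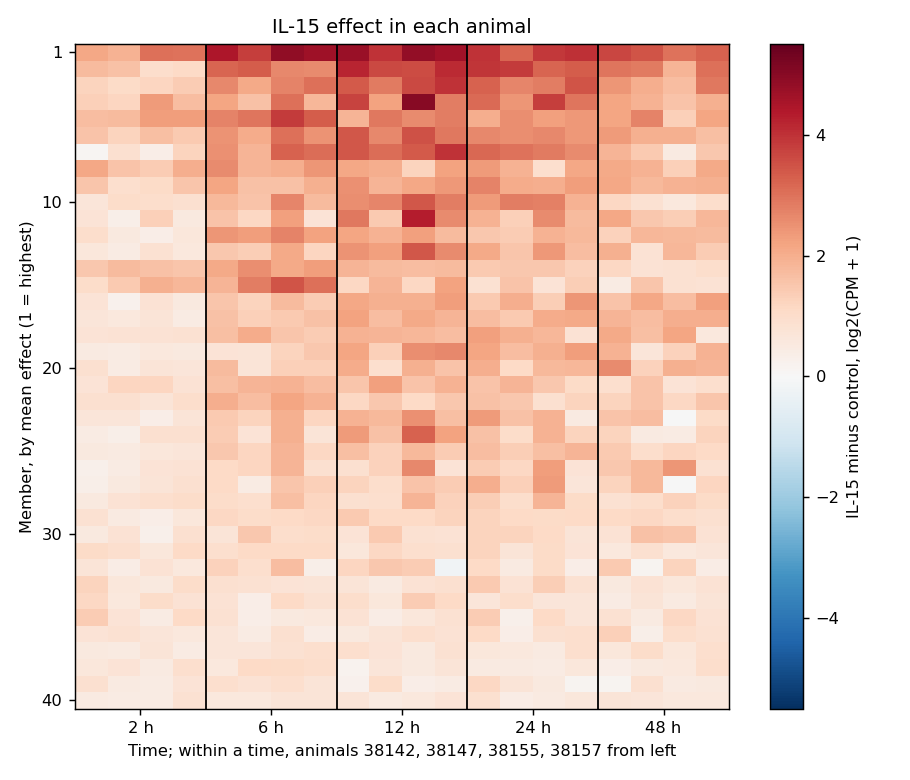
Effect of IL-15 in each animal (colour, IL-15 minus control, log2(CPM + 1)), with 1 row per member ordered by mean effect and 4 columns per time, 1 for each animal. Almost all cells are red, 797 of 800 being above 0, and the colour is palest at 2 h.

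A check that the choice of members did not touch came from applying the rule to 3 animals and reading the animal left out. With 38142 left out, 44 genes were chosen, and 30 of them (68.2%) reached 0.5 at all 5 times in 38142 itself, where 0.406% of all genes past the filter did. With 38147 left out it was 23 of 44 (52.3%, against 0.286%), with 38155 left out 25 of 43 (58.1%, against 0.407%), and with 38157 left out 31 of 42 (73.8%, against 0.435%). The genes chosen by the other animals thus met the rule far more often than genes did at large, in each of the 4 animals, though not all of them met it. Effects above 0 at all 5 times in the animal left out were seen for 44 of 44, 43 of 44, 40 of 43 and 40 of 42 genes, against 11.5%, 13.4%, 10.4% and 12.9% of all genes past the filter in 38142, 38147, 38155 and 38157. At 2 h their median effect in the animal left out was 0.74 in 38142, 0.65 in 38147, 0.71 in 38155 and 0.83 in 38157. Of the 40 members, 30 stayed members with each of the 4 animals left out in turn. The figures describe these 4 animals only.

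In the edgeR fit over all genes, 27 members were called higher with IL-15 at 2 h, where 1.67% of genes tested were. The counts at 6, 12, 24 and 48 h were 38 (5.12% of genes tested), 40 (17.5%), 39 (20%) and 39 (20.2%). All 5 calls were made for 27 members (0.489%), 4 for 10, 3 for 2 and 2 for 1. Since the rule used the same contrast, these counts show only how the fixed effect size of the rule relates to a test over replicates. At 2 h, 13 members lay above the threshold of the rule without passing the test. Without animal 38142, 17 members were called at all 5 times, the fewest with any 1 animal left out.

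Female and male animals were compared on the effect averaged over the 5 times, which the rule did not use. On log2 CPM with TMM scaling and a prior count of 2, the median over members was 1.72 in females and 1.48 in males. The rule favours high values of both. The larger effect was in females for 26 of 40 members. The share of all genes with the larger effect in females was not counted, and the median difference over all genes tested was -0.0007. In limma 0 members passed (0% of the genes tested), and 1 of 40 had an unadjusted p under 0.05, against 6.36% of all genes. Differences ran from -0.55 to 0.86 with a median of 0.17 on the log2 scale, and the lowest adjusted p was 0.751. DESeq2 also called 0. So did an interaction term for sex in edgeR, with 11 of 40 members at an unadjusted p under 0.05, against 7.7% of all genes. The DESeq2 and edgeR fits take the 5 times of an animal as separate values. Their p-values for sex can therefore be too low, and nothing is read from the 11. With 2 animals of each sex, sex cannot be told apart from other differences between the animals.

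ENSMFAG00000063310 was the member with the highest level over all sums. At 2 h it stood at 297, 255, 179 and 246 CPM with IL-15 (animals 38142, 38147, 38155 and 38157), against 188, 124.9, 91.5 and 135 CPM in controls. At 12 h the IL-15 cultures held 2442, 1563, 3741 and 2023 CPM and the controls 409, 242, 351 and 285 CPM. The groups overlapped at 2 h, where the IL-15 culture of 38155 lay below the control of 38142, and were far apart at 12 h. At 48 h the values were 1228, 1280, 2412 and 784 CPM with IL-15, against 564, 706, 1631 and 402 CPM in controls. Each animal was again higher with IL-15, but the control of 38155 lay above the IL-15 cultures of the other animals.

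The ratio of the mean levels of ENSMFAG00000063310 at 2, 6, 12, 24 and 48 h was 1.81, 3.96, 7.59, 5.75 and 1.73. As a description, its edgeR log2 fold change was 0.82 ± 0.32 (SE) at 2 h, 3.08 ± 0.34 at 12 h and 0.91 ± 0.32 at 48 h. Its 2 h value was not called (edgeR adjusted p = 0.244), while its 48 h value was (0.0214). That 48 h call was lost without 38142, 38147 or 38157 (edgeR adjusted p = 0.135, 0.103 and 0.0727). It was kept without 38155 (0.000299). Before culture the gene stood at 220 ± 62.4 CPM (SD, n = 4 animals). Controls themselves rose above this by 48 h, to 826 ± 551 CPM (edgeR log2 fold change 1.51 ± 0.32, adjusted p = 0.00017), while IL-15 cultures averaged 2636 ± 1138 CPM at 24 h and 1426 ± 694 CPM at 48 h. The narrowing of the effect from 12 to 48 h, -2.16 ± 0.45 on the log2 scale (adjusted p = 0.00118), thus went with lower IL-15 means and higher control means. It kept 30.5% of its widest effect at 48 h, the smallest share of all members.

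**Figure D3:**
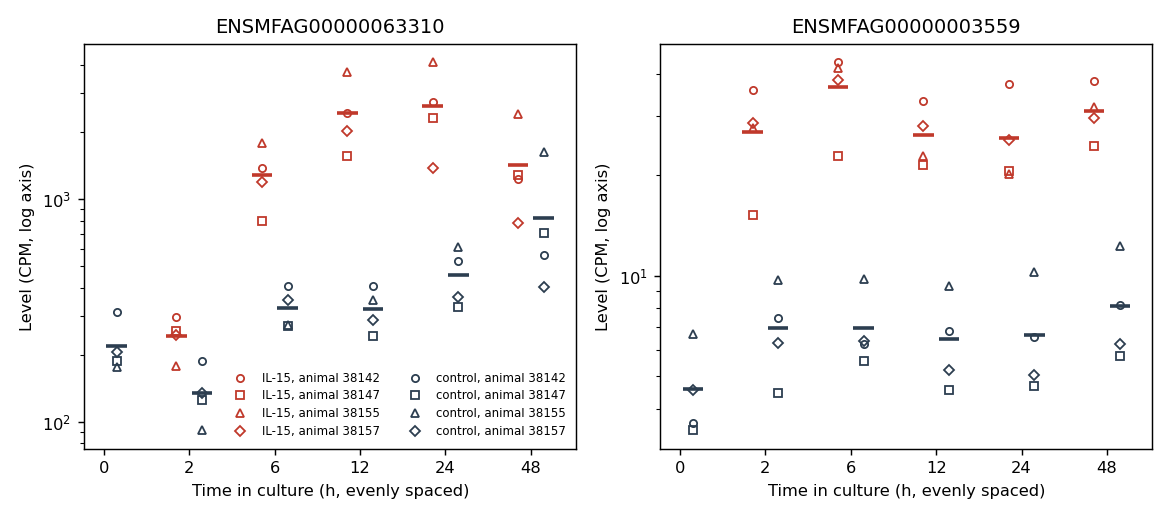
Level in CPM on a log axis against time in hours for the 2 members given by ID, with IL-15 cultures in red left of controls in blue, a symbol for each animal and a bar for the mean. For ENSMFAG00000063310 the IL-15 mean was 2442 CPM at 12 h and the control mean 322 CPM; for ENSMFAG00000003559 the IL-15 means stayed between 25.8 and 36.5 CPM.

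ENSMFAG00000003559 had the steadiest effect among the 8 members with an effect of at least 1 at every time. At 2 h it stood at 35.7, 15.2, 27.5 and 28.6 CPM with IL-15 in 38142, 38147, 38155 and 38157, against 7.47, 4.47, 9.72 and 6.3 CPM in controls. At 12 h the values were 33.1, 21.4, 22.8 and 27.9 CPM with IL-15 and 6.81, 4.54, 9.29 and 5.24 CPM in controls. At 48 h they were 38, 24.3, 31.9 and 29.6 CPM with IL-15, against 8.16, 5.77, 12.2 and 6.26 CPM in controls. The groups did not overlap at any of these times, and in controls 38155 was always the highest animal. The ratio of the mean levels at 2, 6, 12, 24 and 48 h was 3.83, 5.22, 4.06, 3.89 and 3.82. In edgeR the 2 h log2 fold change was 1.90 ± 0.19 (SE) and the 48 h value 2.07 ± 0.19. The gene was picked for its size at every time and its small range, so these values carry no test. It was at 4.58 ± 1.48 CPM before culture, and controls at 48 h held 8.11 ± 2.94 CPM (SD, n = 4 animals).

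The members were set against the starting cells to see whether IL-15 lifted them above the 0 h level or held them up while controls lost them. These comparisons share IL-15 or control samples with the rule, which favours high IL-15 and low control values, so they too are descriptions. At 2 h the IL-15 cultures were higher than 0 h for 31 members (25% of all genes tested) and lower for 2 (29%). Controls at 2 h were higher than 0 h for 14 members (24.5%) and lower for 9 (28.4%). At 48 h the IL-15 cultures were higher than 0 h for 37 members (34.1%) and lower for 0 (30.4%), with 38 members at an unadjusted p under 0.05 (67.5%). DESeq2 called 37 and 0, and its share of all genes was not counted. Controls at 48 h were higher for 19 members (32.8%) and lower for 6 (26.9%). Without animal 38155, controls at 48 h were higher for 13 and lower for 9, and IL-15 cultures were lower than 0 h for 1.

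The members took different courses by 48 h. For 19 members the control rose above 0 h (32.8% of genes tested) and the IL-15 culture rose further, with a median effect of 1.07. For 15 members the control passed no test against 0 h, a share of the 40 close to that of all genes. Of the 15, whose median effect was 1.03, 14 were higher than 0 h with IL-15. For 6 members the control fell below 0 h (26.9% of genes tested), with a median effect of 1.79. With IL-15, 4 of these 6 were above 0 h and 2 passed in neither direction. How many of all genes in each class were higher than 0 h with IL-15 was not counted. At 6 h the control had fallen for 10 members (25.5% of genes tested) and risen for 9 (25.5%), shares of the 40 close to those of all genes. The median effect was 2.13 for the 10 and 1.06 for the 9. A lower control enters the effect directly, so this order is in part built in.

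**Figure D4:**
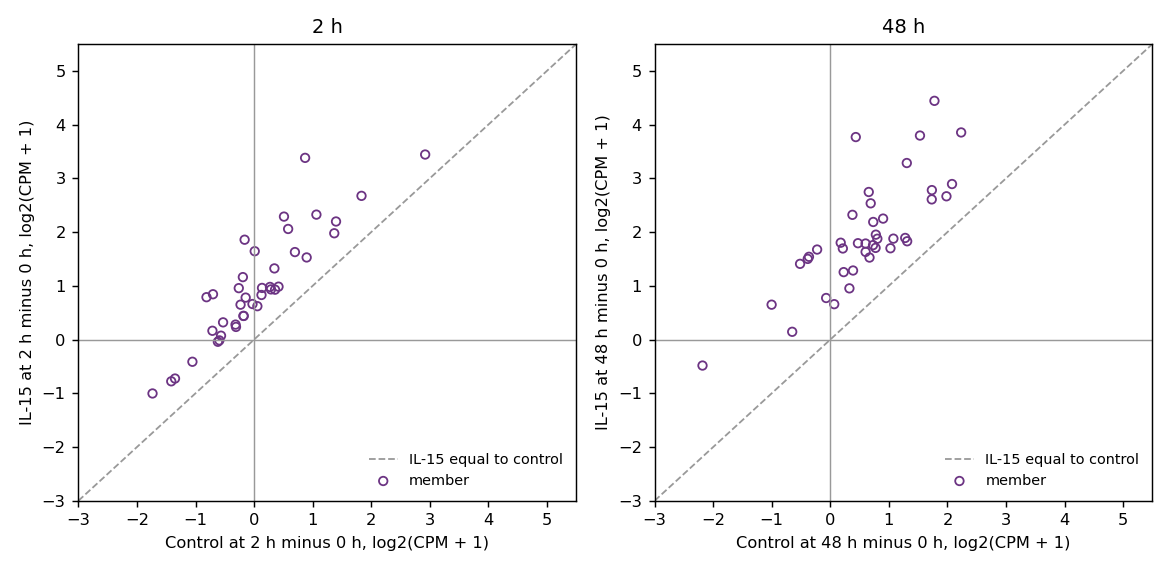
Change from 0 h in IL-15 cultures (y axis) against change from 0 h in controls (x axis), both as differences of log2(CPM + 1), at 2 h on the left and at 48 h on the right, with a circle for each of the 40 members. All circles lie above the dashed line of equality, as the rule requires; at 48 h most lie right of 0, and IL-15 cultures passed the test as higher than 0 h for 37 members.

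Members without an ID here, picked after their values were seen, show these courses. The member with the highest level before culture stood at 556, 320, 427 and 630 CPM at 0 h in 38142, 38147, 38155 and 38157. At 48 h it was at 514, 499, 470 and 592 CPM with IL-15, against 334, 251, 301 and 310 CPM in controls. Controls were below their 0 h level in each animal (log2 fold change -0.98 ± 0.10, SE), and IL-15 cultures were below it in 2 animals, 38142 and 38157, and above it in the others (-0.07 ± 0.10). The member whose control fell most by 48 h was at 45.2, 56.7, 34.6 and 37 CPM at 0 h. It was at 29.6, 21, 50.6 and 26.2 CPM at 48 h with IL-15, against 5.96, 6.93, 19.1 and 6.68 CPM in controls. In 38155 both cultures of this member were higher than in the other animals.

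Another member rose in both cultures within 2 h. Its 2 h values were 63.3, 54.3, 52.7 and 46.5 CPM with IL-15 and 44.9, 39.4, 34.6 and 31.4 CPM in controls, against 11.5, 6.03, 2.32 and 1.22 CPM at 0 h. Both cultures were above 0 h in each animal, and the gap between them was the smallest 2 h effect of the group (0.52). At 6 h both cultures were lower again, at 19.8, 15.4, 14.6 and 13.2 CPM with IL-15, against 11.3, 9.18, 5.57 and 4.14 CPM in controls. By 12 h it was at 43.1, 17.1, 24.5 and 43 CPM with IL-15, against 8.89, 6.19, 3.35 and 6.13 CPM in controls. Each IL-15 culture was then above its own 6 h level while the control means stayed low, at 7.55 CPM at 6 h and 6.14 CPM at 12 h, and the effect was 1.04 at 6 h and 2.17 at 12 h.

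The single member with its widest effect at 2 h rose in both cultures. It stood at 30.2, 10.2, 13.6 and 21.8 CPM with IL-15 at 2 h, against 10.7, 5.62, 9.73 and 9.61 CPM in controls. At 48 h it was at 57.6, 26.9, 48 and 47.5 CPM with IL-15, against 31.9, 18.8, 21.3 and 26.9 CPM in controls, from 5.03 ± 0.92 CPM at 0 h (SD, n = 4 animals). The groups overlapped at both times. Its effect was 0.93 at 2 h, 0.86 at 24 h and 0.82 at 48 h. In edgeR, which used TMM scaling, its log2 fold change was 0.98 ± 0.14 (SE) at 2 h and 1.07 ± 0.14 at 24 h. Which time was widest for this member thus depended on the measure. The effect that grew most from 2 to 12 h belonged to a member with 67.4, 75.3, 30.9 and 49.5 CPM with IL-15 at 2 h and 62.6, 41, 23.7 and 20.8 CPM in controls, where the groups overlapped. At 12 h that member was at 287, 206, 370 and 266 CPM with IL-15 and at 25.8, 23.8, 35.1 and 16 CPM in controls. Its effect was 0.64 at 2 h and 3.46 at 12 h.

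The widest spread between animals was that of a member at 12 h, which stood at 50.2, 24.5, 104.4 and 29.8 CPM with IL-15, against 2.93, 4.48, 2.32 and 3.43 CPM in controls. Animal 38155 was the highest with IL-15 and the lowest in controls, and the groups did not overlap. The SD of its effect over animals was 1.21, where the median SD over members at 12 h was 0.32. The median SD was smallest at 2 h, at 0.21, and lay between 0.31 and 0.35 from 6 h on.

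Before culture the members ranged from 1.59 to 483 CPM with a median of 10.1 CPM, against a median of 28.5 CPM for all genes past the level filter. Of these, 20 were under 10 CPM, 14 between 10 and 100 CPM and 6 at 100 CPM or more. Median effects at 12 h were 1.71 for the lowest class, 1.89 for the middle class and 1.12 for the 6 abundant members. Adding 1 to the CPM holds down the effect of low genes, and with 5 added in its place the rule gave 29 genes, all of them members.

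Together the 40 members made up more of the RNA in IL-15 cultures than in controls. The rule selects for higher sums with IL-15 and for sums that do not overlap, so these values are a description. Their summed level was 4385, 3132, 3195 and 3867 CPM at 2 h with IL-15 (38142, 38147, 38155 and 38157), against 2336, 1888, 1703 and 2092 CPM in controls. At 24 h it was 8995, 6844, 10492 and 6584 CPM with IL-15 and 2621, 2113, 2839 and 2433 CPM in controls. At 48 h it was 6884, 5768, 8289 and 5716 CPM with IL-15, below the 24 h sum in each animal, and 2980, 2482, 4351 and 2490 CPM in controls. The groups did not overlap at any of these times. The mean sum was highest at 24 h with IL-15, at 8229 ± 1856 CPM (SD, n = 4 animals) against 2501 ± 308 CPM in controls, and the sum before culture was 2221 ± 322 CPM. The ratio of the mean sums was widest at 12 h, at 3.63, and stood at 1.82 at 2 h and 2.17 at 48 h. ENSMFAG00000063310 alone gave a mean of 31.1% of the sum with IL-15 at 24 h, and without it the ratio was 2.97 at 12 h and 2.33 at 48 h.

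**Figure D5:**
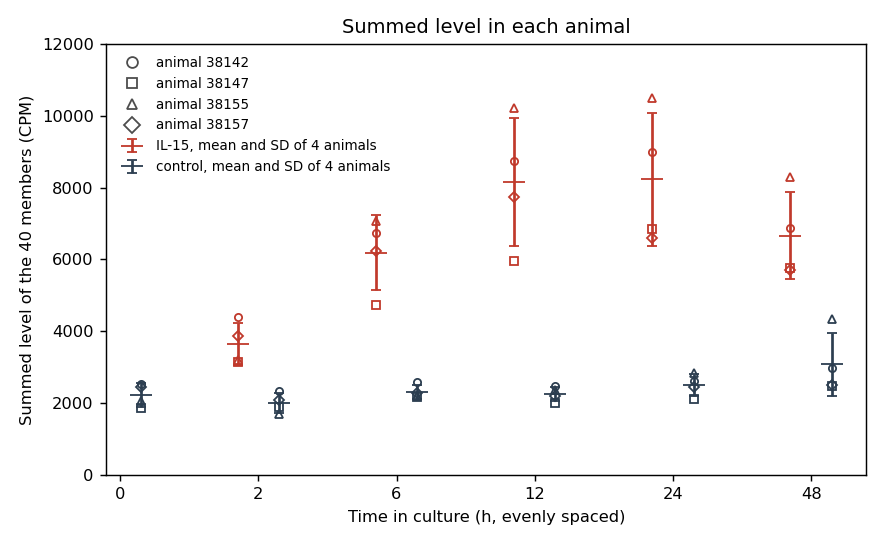
Summed level of the 40 members in CPM against time in hours, with IL-15 cultures in red left of controls in blue, a symbol for each animal, and the mean with its SD over 4 animals. IL-15 cultures averaged 8159 CPM at 12 h and 8229 CPM at 24 h, while control means lay between 2005 and 3076 CPM. Single control sums ran from 1703 CPM (38155 at 2 h) to 4351 CPM (38155 at 48 h).

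Library names hold codes whose meaning is not given in the sources used here. Where both cultures of an animal had a library under the same code, the members' median effect was 0.82 at 2 h (1 animal, Lib1 GL67) and 0.81 at 2 h (3 animals, Lib1 GL75). At 12 h it was 1.93 (1 animal, Lib1 GL66), 1.70 (3 animals, Lib1 GL75) and 1.69 (1 animal, Lib2 GL75). At 48 h it was 1.36 (2 animals, Lib1 GL67), 1.17 (3 animals, Lib1 GL75) and 1.5 (1 animal, Lib2 GL75). All 40 members were above 0 in each of the 13 combinations of code and time that had such a pair, and libraries of Lib1 merged and Lib1 GL76 had none. The same libraries had chosen the members, so the rule favours this count and nothing is read from it about the codes. The share of all genes above 0 was not counted. Over all genes past the level filter the 12 h medians were -0.12 (Lib1 GL66), -0.14 (Lib1 GL75) and -0.09 (Lib2 GL75).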

How the data were processed

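The authors deposited whole-number counts per gene for libraries of messenger RNA (KAPA mRNA HyperPrep kit after RNeasy extraction, per the labels' protocols), in a table with cynomolgus gene IDs (38550 rows) and another with rhesus gene IDs (35432 rows). The aligner, counting tool, genome build and annotation were not given in the sources used here. All columns matched a sample by its library name. No 2 of the 3 libraries of an animal and group agreed within sampling noise (lowest chi-square per degree of freedom 3.57). Their counts were summed to 44 sums, CPM used library totals, and effects were differences of log2(CPM + 1).

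Tests used edgeR 4.0.16 in R 4.3.3 (TMM, filterByExpr, robust quasi-likelihood fit, 18197 genes, terms for group and animal; SE from the F statistic) and limma 3.58.1 for the sexes (prior count 2); DESeq2 1.42.0 was an alternative. P-values were adjusted over all genes. In edgeR the animal term takes up each animal's own level. Its p-values thus measure how differences between groups varied among these animals, pooled over the 11 groups. Those of limma measure the spread of the effect between these animals. The fit of IL-15 against control at 12 h was tested on simulated counts. Animals pair the groups by the labels: deviations of an animal's IL-15 and control sums from their group means correlated above 0.1 in 20 of 20 pairs (median r 0.804).

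The members, lists and tests were chosen with earlier results of these data known. The IDs printed are the member with the highest mean CPM and, among members with an effect of at least 1 at each time, that with the smallest range of effects. The lists of symbols planned could not be run, since no table pairs IDs with symbols. Alternatives varied the pseudocount, scaling, level filter, threshold, tool, low-count filter, animal term, library summing and table, and left out each animal; sets without the libraries that stand apart, the edgeR interaction for the sexes and the comparisons of 12 h with 2 h and 48 h were added after seeing the data.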

Additional observations from a re-analysis of the deposited data

Results flagged for a closer look

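Some members had unequal effects at different times, by edgeR's quasi-likelihood test with Benjamini-Hochberg adjustment; the same samples had chosen the members. It was higher at 12 h than at 2 h for 23 members, lower at 48 h than at 12 h for 9, higher at 48 h than at 2 h for 11 and lower for 1. For ENSMFAG00000063310 the 12 h effect exceeded the 2 h effect by 2.26 on the log2 scale (SE 0.45, edgeR adjusted p = 0.000913), and the change from the 12 h to the 48 h effect was -2.16. The median effect of the members at 2 h was 0.8645 in animal 38157, far from the other 3 animals, which lay between 0.7601 and 0.7612. This was 1 of 48 groups of 4 animals examined, where chance gives about 1 in 20.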

How the results depend on the processing

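The number of members, 40, was 23 with a level filter of 20 CPM and 63 with a threshold of 0.4. Under the other rules tried it was 28 to 51, and it was 39 in the rhesus table. With the effect taken within library numbers as a replicate block it was 40 (39 of them members). As each animal and group has all 3 numbers, this equals averaging the libraries' log2 values and is no separate check. Median effects with log2(CPM + 5) were 0.5861 at 2 h, 1.159 at 6 h and 1.466 at 12 h; at 12 h TMM scaling gave 1.962 and RLE scaling 1.943. With each animal left out, the 2 h median was 0.7267 to 0.7777 and the 48 h median 1.11 to 1.361. Without the animal term (no replicate block by animal), 10 members were called higher at all 5 times, and the effect differed for 4 from 2 to 48 h, for 11 from 2 to 12 h and for 3 from 12 to 48 h. With single libraries and the library number as a replicate block, treating 3 libraries of an animal as separate, these differences numbered 20 from 2 to 48 h and 21 from 12 to 48 h. That fit also called 12 members for a difference between the sexes and 1 as lower with IL-15 at 48 h than at 0 h. It takes the libraries and times of an animal as separate values, so its p-values for sex can be too low. The share of all genes it called was not counted, and nothing is read from the 12. With each animal left out, 17 to 23 members were called higher at all 5 times, 0 to 1 was lower with IL-15 at 48 h than at 0 h, and the effect differed for 7 to 14 members from 2 to 48 h, for 15 to 20 from 2 to 12 h and for 5 to 9 from 12 to 48 h. For ENSMFAG00000063310 the difference between 48 and 2 h, 0.095 on the log2 scale, was -0.0805 to 0.266 with each animal left out and was not called with all 4. Library numbers did not pair the samples (30 of 60 correlations above 0.1, median 0.101). The causes were not tested.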

Other observations

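The control culture of animal 38155 at 48 h held more of the members' RNA than the other controls. The summed level of the 40 members in its 3 libraries was 4345, 4694 and 4133 CPM, against 2438 to 3199 CPM in the 9 libraries of the other animals. Much of this gap lay in ENSMFAG00000063310, at 1631 CPM in this control and at 564, 706 and 402 CPM in those of 38142, 38147 and 38157. Without that gene the control sums were 2416, 1777, 2719 and 2088 CPM in 38142, 38147, 38155 and 38157. The control of 38155 was the highest of the 4 control animals for 27 of 40 members, where it was the highest for 22.2% of the genes past the level filter. At 0 h it was the highest for 7 members (20.8% of the genes past the filter). With IL-15 at 48 h the same animal was also highest for 21 of 40 members (28.4% of the genes past the filter), with sums of 8458, 8162 and 8246 CPM. Both members with an effect at or below 0 at 48 h had it in this animal, and without it the median effect at 48 h was 1.36 in place of 1.18. Its own 48 h median over members was 1.20, above that of 38157 (1.08) and below those of 38142 (1.36) and 38147 (1.46). Without 38155 the median was also higher at 2 h (0.75 in place of 0.72). It was lower at 6 h (1.28 in place of 1.44) and 24 h (1.49 in place of 1.59), and 1.78 either way at 12 h. Animal 38147 was the highest control for 1 member at 48 h (26.4% of the genes past the filter). With IL-15 it was the highest for 1 member at each of 6, 12 and 24 h (20.9%, 31.2% and 20.6%). These were values noticed in the data and no test was made of them.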
